A study of Homo sapiens with 15 samples.

Results

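The smooth muscle contractile programme was followed here as a list of 31 genes given by symbol. The list holds the actins, calponins, tropomyosins, myosin chains and filament proteins of contracting smooth muscle together with the transcription factors known to drive them. All 31 symbols were found among the 25681 gene symbols of the count tables. The cells were HSSYII, an established human synovial sarcoma line that carries the SS18-SSX1 fusion, in which part of the BAF chromatin remodelling subunit SS18 is joined to SSX1. RNA was sequenced from 15 libraries in 5 groups of 3. In the 6 hr experiment, cells received dBRD9-A at 100 nM or DMSO alone at 0.0001%. dBRD9-A is a small molecule that leads to degradation of BRD9, a bromodomain subunit of the BAF complex. In the 96 hr experiment, cells were infected at an MOI of 1.0 with GFP-tagged lentivirus carrying 1 of 2 hairpins, shSS18-SSX1-1 or shSS18-SSX1-2, or the control hairpin shRenilla, and were grown on without drug selection. The share of cells that carried a hairpin is not given in the sources used here, and all libraries came from 1 cell line that holds the fusion. The sources do not say whether the 3 libraries of a group came from separate cultures, so p-values speak only to how far such samples scatter, possibly for technical reasons alone.

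Smooth muscle cells contract when myosin light chain kinase phosphorylates the regulatory light chain of myosin, and myosin then pulls on actin filaments that carry tropomyosin, calponin and caldesmon. The genes of this apparatus are known as targets of serum response factor, SRF, which binds a short DNA element named the CArG box. SRF acts there with partner proteins, myocardin in smooth and heart muscle and the myocardin-related factors MKL1 and MKL2 in most cells. The partners MKL1 and MKL2 are held in the cytoplasm by free actin monomers.

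The CArG box is shown first because it is the sequence that ties these genes to their regulators. RefSeq start sites on GRCh38.p14 were read from 250 bases before to 50 bases after the start, on both strands, and a box was found in 454 of 35116 such windows (1.29%). Of the 31 members, 25 had at least 1 window and 9 of these held a box, against 438 of 27305 genes overall (1.6% of genes). These members were ACTG2, FHL2, MYLK, LPP, SRF, CNN2, TPM4, SMTN and FHL1. By window, 11 of 66 member windows held a box (16.7%). TAGLN, MYH11, MYL9, DES, MYOCD and PGM5 had no window. Only exact boxes of 10 bases were counted, CC, then A or T only, then GG. Boxes with any other base, or outside the windows, were not looked for. The following stretches, written 5′ to 3′ on the strand of the gene with the box in capitals, come from 5 of the genes whose values are given below.
ACTG2, chr2:73892878-73892927, plus strand: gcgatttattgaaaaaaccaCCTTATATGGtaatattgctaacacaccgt
ACTG2, chr2:73892915-73892964, plus strand: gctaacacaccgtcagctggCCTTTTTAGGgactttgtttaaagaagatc
MYLK, chr3:123620613-123620662, minus strand: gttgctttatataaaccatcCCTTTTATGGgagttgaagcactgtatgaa
FHL2, chr2:105399081-105399130, minus strand: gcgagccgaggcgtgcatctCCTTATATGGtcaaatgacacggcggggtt
CNN2, chr19:1026499-1026548, plus strand: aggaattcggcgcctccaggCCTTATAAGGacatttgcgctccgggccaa
SRF, chr6:43171219-43171268, plus strand: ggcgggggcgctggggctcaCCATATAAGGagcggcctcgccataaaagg
The SRF stretch ends at the base before the start site and holds another box in its last bases. A match describes the letters of the window. Whether a protein occupies it was not measured here.

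The libraries held between 18580419 and 27031647 counts. Levels are given as CPM (counts scaled to a common library size) on library sizes scaled by TMM over all 15 libraries. Replicates of shRenilla differed most, and replicate 1 stood apart from the other two, with a chi-square per degree of freedom of at least 27, against at most 9.85 for any other pair within a group. SSX1, to which the hairpins are directed by their names, averaged 24.4 ± 4.78 CPM in the hairpin libraries (SD, n = 6) and 63.6 ± 11.8 CPM in shRenilla libraries (SD, n = 3), a log2 fold change of -1.42 (adjusted p = 5.73e-08, edgeR). A member passed the test at an adjusted p under 0.05 at any fold. Whether libraries overlapped between groups is described for the members only. The share of all genes without such overlap was not counted, so it is no measure of the members against other genes. In bulk RNA, fewer cells of a type and less RNA per cell cannot be told apart.

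The members are spread over the genome. On GRCh37 the annotation places ACTA2 at chr10:90694831-90751096 on the minus strand, ACTG2 at chr2:74119441-74146992 on the plus strand, TAGLN at chr11:117070086-117078180 on the plus strand and MYLK at chr3:123328896-123603179 on the minus strand, and the files give counts per RefSeq transcript of each gene.

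Fusion knockdown went with large gains of the genes that define smooth muscle, and genes that had next to no reads in the control cells rose past 15 CPM. ACTA2, the smooth muscle alpha-actin, had 46.3, 46.8 and 55 CPM in shSS18-SSX1-1 libraries and 59.9, 77.9 and 52.7 CPM in shSS18-SSX1-2 libraries, against 0, 0.0448 and 0.0484 CPM in shRenilla libraries. These were 7551 reads in 6 hairpin libraries and 2 reads in 3 control libraries, a ratio of 1989 with a 95% exact counting interval of 551 to 16431 that covers counting error only (adjusted p = 1.23e-11, edgeR). Both hairpin groups lay far above every control library. ACTA2, ACTG2 and LMOD1 reached the filter on low counts only through their hairpin libraries and so had to differ. Their p-values therefore add nothing to the counts. ACTG2, the enteric gamma-actin, had 90.8, 90.2 and 104 CPM with shSS18-SSX1-1 and 113, 138 and 104 CPM with shSS18-SSX1-2, against 0.0377, 0.269 and 0.242 CPM with shRenilla. Its log2 fold change was 9.20 ± 0.233 (SE, adjusted p = 3.2e-12, edgeR), from 14228 hairpin reads and 12 control reads. LMOD1, a leiomodin that nucleates actin filaments in smooth muscle, had 17.6, 18.4 and 19.1 CPM with shSS18-SSX1-1 and 23.3, 34.2 and 23.3 CPM with shSS18-SSX1-2, against 0.0377, 0.0448 and 0 CPM with shRenilla. Its 3029 hairpin reads and 2 control reads gave a ratio of 798, with an exact counting interval of 221 to 6593 (adjusted p = 9.41e-11, edgeR).

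TAGLN and CNN1 were already read in control cells and rose from there. TAGLN, or transgelin, an actin-bundling protein, had 507, 527 and 529 CPM with shSS18-SSX1-1 and 536, 562 and 484 CPM with shSS18-SSX1-2, against 17.1, 13.3 and 13 CPM with shRenilla. Its log2 fold change was 5.16 ± 0.112 (SE, adjusted p = 8.37e-13, edgeR). CNN1, the calponin of differentiated smooth muscle, had 20.4, 24 and 19.1 CPM with shSS18-SSX1-1 and 20.1, 23.2 and 21.6 CPM with shSS18-SSX1-2, against 3.02, 3.68 and 2.9 CPM with shRenilla. It rose by 2.72 ± 0.123 on the log2 scale (SE, adjusted p = 8.71e-10, edgeR), and no hairpin library overlapped the controls for either gene.

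DES and MYH11 set the limits of this pattern. DES, the muscle intermediate filament protein desmin, had 0.544, 0.324 and 0.534 CPM with shSS18-SSX1-1 and 1.23, 1.02 and 1.08 CPM with shSS18-SSX1-2, against 0.0377, 0.0897 and 0.0484 CPM with shRenilla. Its log2 fold change was 3.52 ± 0.422 (SE, adjusted p = 1.16e-05, edgeR), from 105 hairpin reads and 4 control reads, so its level stayed near 1 CPM. DES too reached the filter on low counts only through its hairpin libraries, so its p-value adds nothing to the counts. The counts of MYH11, the smooth muscle myosin heavy chain, did not follow. MYH11 had 17.9, 15 and 15.3 CPM with shSS18-SSX1-1 and 18.1, 19.1 and 18.8 CPM with shSS18-SSX1-2, against 17.2, 15.3 and 16 CPM with shRenilla. The groups overlapped and the log2 fold change was 0.08 ± 0.0859 (SE, adjusted p = 0.471, edgeR). Of the canonical MYH11 transcript, 13.3% overlaps exons of NDE1, a gene of the cytoskeleton of dividing cells, on the opposite strand. NDE1 had 1014 to 1318 counts in the hairpin libraries and 1379 to 1939 counts in shRenilla libraries, against 278 to 484 and 331 to 455 counts for MYH11. NDE1 was lower with knockdown (log2 fold change -0.34, adjusted p = 0.00221, edgeR). Whether the counting used strand is not given in the sources used here, and without it reads of the pair cannot be told apart. The MYH11 counts therefore do not settle whether MYH11 itself changed.

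**Figure D1:**
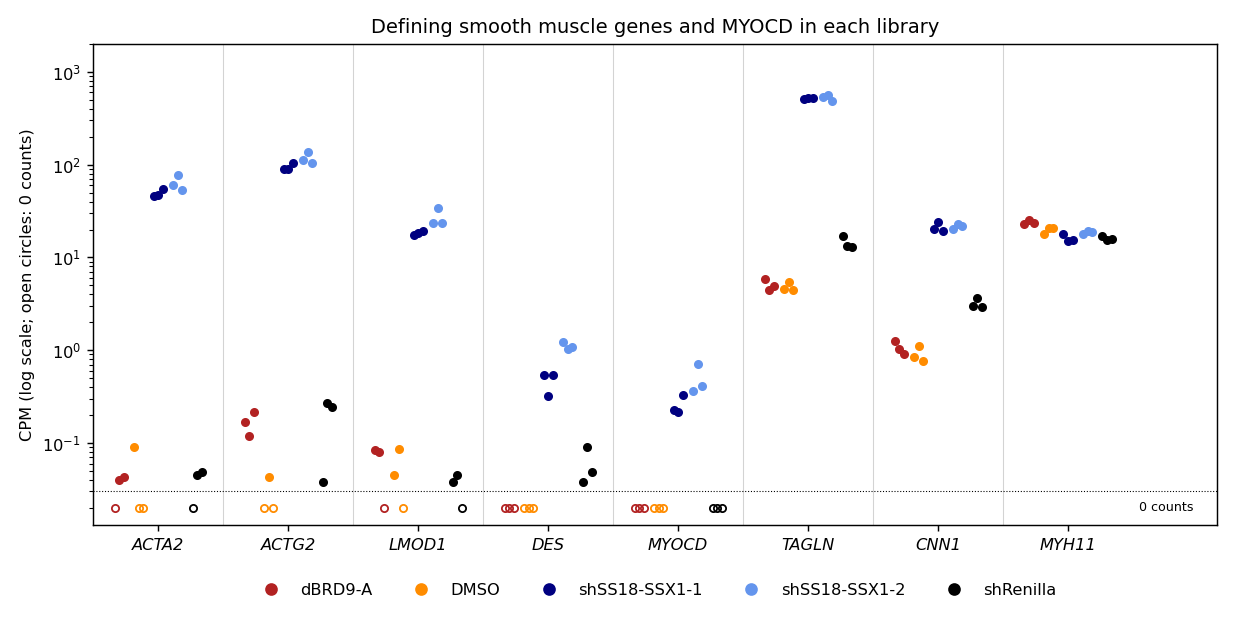
CPM on a log axis for the 7 defining smooth muscle genes and MYOCD, 1 point per library and 3 libraries per group, with libraries at 0 counts drawn as open circles below the dotted line. Points of both hairpin groups stand above the shRenilla points for ACTA2, ACTG2, LMOD1, DES, MYOCD, TAGLN and CNN1, while those of MYH11 lie between 15 and 25.6 CPM in all 5 groups.

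MYLK, the gene of myosin light chain kinase, had the largest log2 fold change of the 23 members whose control libraries reached the filter on low counts by themselves, and nearly all of its reads lay in 1 part of the gene. Its longest row had 69.8, 63 and 80.8 CPM with shSS18-SSX1-1 and 80.5, 87.7 and 67.8 CPM with shSS18-SSX1-2, against 0.83, 0.628 and 0.871 CPM with shRenilla (log2 fold change 6.56 ± 0.171 SE, adjusted p = 3.54e-12, edgeR). The gene also makes telokin, a short protein of smooth muscle that is the carboxy-terminal end of the kinase without its catalytic part, from a promoter inside the gene. The files give a row of its own to that short transcript, and its reads were treated as part of those counted in the longest row. The count of the short row was 96.7% to 99.2% of that of the longest row in the hairpin libraries, against 22.2% to 35.7% in shRenilla libraries. This split was examined after the values had been seen.

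The short row alone had 68.4, 61.9 and 80 CPM with shSS18-SSX1-1 and 78.6, 87 and 65.5 CPM with shSS18-SSX1-2, against 0.189, 0.224 and 0.193 CPM with shRenilla. The mean of the hairpin libraries was 364 times that of the controls (exact permutation test, two-sided p = 0.0238, the smallest this design allows, and 0.0952 after Benjamini-Hochberg adjustment over 4 tests). The short row held only 5, 5 and 4 counts in the shRenilla libraries. The tests with dBRD9-A are given below. What was left of the longest row after subtraction of the short row was taken to lie outside the short transcripts. The exons of the rows were not compared, and reads counted in the short row alone would make this remainder too small. The remainder had 1.36, 1.13 and 0.821 CPM with shSS18-SSX1-1 and 1.86, 0.67 and 2.26 CPM with shSS18-SSX1-2, against 0.642, 0.404 and 0.677 CPM with shRenilla. Its mean ratio was 2.35 (exact permutation test, two-sided p = 0.0476, adjusted p = 0.0952), the ranges overlapped, and the counts were between 9 and 44 a library. The gain of MYLK counts with knockdown was a gain of reads in the exons of the short 3′ transcripts. The MYLK stretch printed above lies before the RefSeq start of that short transcript.

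**Figure D2:**
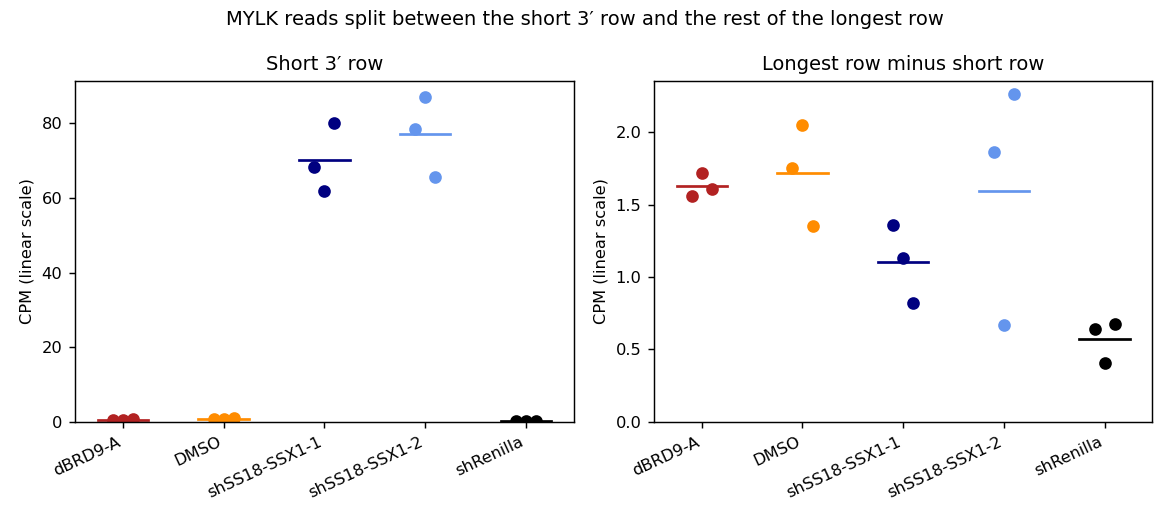
CPM on linear axes of the short 3′ row of MYLK (left) and of the longest row after subtraction of the short row (right), 1 point per library with the group mean as a bar. The short row stood at 61.9 to 87 CPM in the hairpin libraries and at 0.224 CPM or less in shRenilla libraries, while the rest stayed at or below 2.26 CPM in all 15 libraries.

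Tropomyosins and the regulatory light chain, which smooth muscle shares with other contractile cells, rose from higher control levels. TPM1, a tropomyosin that lies along the actin filament, had 348, 335 and 382 CPM with shSS18-SSX1-1 and 365, 423 and 342 CPM with shSS18-SSX1-2, against 104, 87.2 and 92.9 CPM with shRenilla (log2 fold change 1.93 ± 0.0922 SE, adjusted p = 1.52e-09, edgeR). MYL9, the regulatory light chain that the kinase phosphorylates, had 547, 554 and 582 CPM with shSS18-SSX1-1 and 542, 594 and 553 CPM with shSS18-SSX1-2, against 208, 148 and 159 CPM with shRenilla. It rose by 1.69 ± 0.102 on the log2 scale (SE, adjusted p = 1.57e-08, edgeR). The beta-tropomyosin TPM2 had 616, 647 and 680 CPM with shSS18-SSX1-1 and 583, 608 and 595 CPM with shSS18-SSX1-2, against 303, 230 and 245 CPM with shRenilla (log2 fold change 1.24 ± 0.0881 SE, adjusted p = 7.75e-08, edgeR). TPM4, a tropomyosin of many cell types, rose by 0.83. None of these genes had a hairpin library within the range of the controls.

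Among the LIM-domain proteins, which sit at actin filaments and adhesion sites, FHL2 moved most. FHL2, a cofactor that also binds SRF, had 48.5, 44.4 and 50.7 CPM with shSS18-SSX1-1 and 49.6, 57.6 and 49.2 CPM with shSS18-SSX1-2, against 13.9, 12.4 and 12.2 CPM with shRenilla. Its log2 fold change was 1.95 ± 0.0928 (SE, adjusted p = 1.52e-09, edgeR). The actin-filament adaptor PDLIM7 had 75.6, 80.8 and 69 CPM with shSS18-SSX1-1 and 71.8, 68 and 75.7 CPM with shSS18-SSX1-2, against 37.5, 31.3 and 39.3 CPM with shRenilla (log2 fold change 1.01, adjusted p = 5.11e-07, edgeR). PDLIM5, which joins kinases to the Z-disc, rose by 0.50 and LPP, an adhesion protein, by 0.89. CSRP1, a LIM protein of smooth muscle and fibroblasts, had 53.8, 56.4 and 55.5 CPM with shSS18-SSX1-1 and 60.6, 62.6 and 61.3 CPM with shSS18-SSX1-2, against 52.2, 42.3 and 49.6 CPM with shRenilla. It rose by 0.26 ± 0.0761 (SE, adjusted p = 0.0123, edgeR). FHL1, another member of the FHL family, moved by 0.01 log2 units (adjusted p = 0.951).

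The calponin paralogs and the remaining filament genes also differed in size. CNN2, a calponin found beyond muscle, had 414, 419 and 392 CPM with shSS18-SSX1-1 and 405, 407 and 420 CPM with shSS18-SSX1-2, against 299, 209 and 265 CPM with shRenilla (log2 fold change 0.65 ± 0.0936 SE, adjusted p = 6.75e-05, edgeR). CNN3, the acidic calponin, rose by 0.71, SMTN (smoothelin, which binds actin) by 0.95 and CALD1 (caldesmon, which binds actin and myosin) by 1.10. SYNM, the intermediate filament protein synemin, was the 1 member that fell, with a log2 fold change of -0.36 ± 0.088 (SE, adjusted p = 0.00476, edgeR). Its levels were 41.3 to 50.8 CPM in hairpin libraries and 51.7 to 67.9 CPM in shRenilla libraries. MYL6, the essential light chain of smooth and non-muscle myosin, gave 0.19 on the log2 scale (adjusted p = 0.248). This value was set by 1 control library: shRenilla replicate 1 had 897 CPM, against 542 and 564 CPM in the other shRenilla libraries and 723 to 806 CPM with the hairpins. Without that library, MYL6 rose by 0.49 (adjusted p = 8.33e-06, edgeR).

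Of the regulators, myocardin appeared at the edge of detection and SRF moved little. MYOCD, the muscle-specific partner of SRF, had 0.226, 0.216 and 0.328 CPM with shSS18-SSX1-1 and 0.363, 0.709 and 0.411 CPM with shSS18-SSX1-2, and 0 counts in each of the 3 shRenilla libraries. These 51 reads were too few for the filter on low counts, which leaves MYOCD untested, and they put the hairpin level at least 8.96-fold higher than a floor of 3 counts over the control group. SRF had 134, 145 and 134 CPM with shSS18-SSX1-1 and 137, 135 and 146 CPM with shSS18-SSX1-2, against 108, 102 and 122 CPM with shRenilla, a log2 fold change of 0.31 ± 0.0706 (SE, adjusted p = 0.00267, edgeR). The coactivator gene MKL1 had 35.3, 37.2 and 34.2 CPM with shSS18-SSX1-1 and 33.2, 34.7 and 36.6 CPM with shSS18-SSX1-2, against 29.1, 23.8 and 26.8 CPM with shRenilla (log2 fold change 0.39 ± 0.0815 SE, adjusted p = 0.00153, edgeR). All hairpin libraries lay above the control libraries for these 3 genes. MKL2, which encodes the related coactivator, had 67.9, 61 and 63.8 CPM with shSS18-SSX1-1 and 66.2, 58 and 57.9 CPM with shSS18-SSX1-2, against 45, 70.9 and 64.2 CPM with shRenilla. Here the groups overlapped (log2 fold change 0.04, adjusted p = 0.777).

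Over the list, 27 members were tested with knockdown, 22 were higher and 1 was lower, beside 22.5% of the 14269 genes tested higher and 22.1% lower. Of the tested members, 4 (ACTA2, ACTG2, LMOD1 and DES) reached the filter only through their hairpin libraries and so had to differ. Among the 23 members that the controls also read, 18 were higher and 1 was lower, and their median log2 fold change was 0.83, beside -0.01 over all genes tested. More than 1.5-fold higher were 14 of these 23, beside 12.5% of all genes tested. The untested members other than MYOCD were at or near 0. SYNPO2, an actin-binding protein, had 22 hairpin reads and 2 control reads (ratio 5.8, exact counting interval 1.42 to 50.9). PGM5, a protein of muscle adhesion sites, had 3 and 1 reads, and KCNMB1, the beta subunit of the smooth muscle BK potassium channel, had 0 counts in all 15 libraries.

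Each hairpin was also set against shRenilla alone, and these comparisons share the shRenilla libraries. ACTA2 had log2 fold changes of 10.49 with shSS18-SSX1-1 and 10.83 with shSS18-SSX1-2, TAGLN 5.16 and 5.16, MYLK 6.50 and 6.63, and FHL2 1.89 and 2.00, in the same order. CSRP1 passed with shSS18-SSX1-2 (0.33, adjusted p = 0.00963, edgeR) and not with shSS18-SSX1-1 (0.20, adjusted p = 0.0889). The values of MYH11 (-0.02 and 0.18), FHL1 (-0.12 and 0.13) and MKL2 (0.10 and -0.01) had opposite signs and passed with neither hairpin. In the direct test of shSS18-SSX1-2 minus shSS18-SSX1-1, 0 of the 27 tested members passed with edgeR, 5 had an unadjusted p under 0.05, and 0.147% of all genes tested passed. The most extreme of these members were DES, 1.19 ± 0.274 (SE, adjusted p = 0.109), and LMOD1, 0.53 ± 0.142 (SE, adjusted p = 0.185). DESeq2 and limma passed 0 members as well. Without shRenilla replicate 1 the count was 1, FHL1, which passed at 0.25 (adjusted p = 0.0407).

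After 6 hr of dBRD9-A, 12 members were higher than in DMSO cells, among them calponin, LIM-domain, myosin and tropomyosin genes and SRF, and only FHL2 was higher by more than 1.5-fold. Of the 7 defining genes MYH11 was higher, TAGLN and CNN1 did not pass the test, and ACTA2, ACTG2, LMOD1 and DES lay under the filter on low counts. ACTA2 had 0, 0.04 and 0.0435 CPM with dBRD9-A, against 0.0898, 0 and 0 CPM with DMSO. LMOD1 had 0.0842, 0.0799 and 0 CPM with dBRD9-A, against 0.0449, 0.0856 and 0 CPM with DMSO, and DES and MYOCD had 0 counts in all 6 libraries. At this depth no expression of ACTA2, LMOD1, DES or MYOCD above a few reads was detectable in either group. ACTG2 had 0.168, 0.12 and 0.218 CPM with dBRD9-A, against 0, 0.0428 and 0 CPM with DMSO, which were 12 reads and 1 read (ratio 11.1, exact counting interval 1.64 to 475). These counts lay under the filter and were not tested. TAGLN had 5.89, 4.47 and 4.87 CPM with dBRD9-A, against 4.58, 5.48 and 4.42 CPM with DMSO, with overlapping groups and a log2 fold change of 0.07 ± 0.123 (SE, adjusted p = 0.684, edgeR). CNN1 had 1.26, 1.04 and 0.914 CPM with dBRD9-A, against 0.853, 1.11 and 0.769 CPM with DMSO, which also overlapped (log2 fold change 0.23 ± 0.25 SE, adjusted p = 0.507). MYLK had 2.02, 2.2 and 2.31 CPM with dBRD9-A, against 2.47, 2.91 and 2.36 CPM with DMSO (log2 fold change -0.24 ± 0.161 SE, adjusted p = 0.249).

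FHL2 gave the largest response to dBRD9-A in the list. It had 22.2, 21.6 and 21.4 CPM with dBRD9-A, against 13.2, 11.5 and 12.3 CPM with DMSO, with no overlap (log2 fold change 0.82 ± 0.0681 SE, adjusted p = 5.81e-11, edgeR). It was the 1 member more than 1.5-fold higher, beside 2.23% of all genes tested. CSRP1 had 44.1, 45.6 and 41.8 CPM with dBRD9-A, against 32.9, 30.5 and 33.5 CPM with DMSO (log2 fold change 0.45 ± 0.0513 SE, adjusted p = 3.54e-08, edgeR). The calponin gene CNN2 had 539, 529 and 524 CPM with dBRD9-A, against 399, 416 and 401 CPM with DMSO (log2 fold change 0.39 ± 0.0278 SE, adjusted p = 1.74e-12, edgeR). For both genes every dBRD9-A library lay above every DMSO library. PDLIM7 had 31.2, 32.9 and 30.1 CPM with dBRD9-A, against 22, 26.9 and 24.4 CPM with DMSO (log2 fold change 0.37, adjusted p = 2.58e-05). MYL9 had 168, 163 and 163 CPM with dBRD9-A, against 131, 136 and 129 CPM with DMSO (log2 fold change 0.33, adjusted p = 6.83e-09). TPM1 had 65.6, 68.6 and 68.8 CPM with dBRD9-A, against 57.1, 59 and 61.5 CPM with DMSO (log2 fold change 0.20, adjusted p = 0.000421). These 3 genes, which act on the actin filament or on myosin, did not overlap between the groups either. TPM2 did, with 225, 223 and 218 CPM with dBRD9-A, against 213, 225 and 209 CPM with DMSO (log2 fold change 0.05, adjusted p = 0.282). How many of all genes were free of overlap with dBRD9-A was not counted.

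Among the regulators, SRF was the member that dBRD9-A raised. SRF had 128, 121 and 119 CPM with dBRD9-A, against 93.1, 94.5 and 98.8 CPM with DMSO (log2 fold change 0.37 ± 0.0383 SE, adjusted p = 6.83e-09, edgeR). MKL1 had 25.7, 26.1 and 25 CPM with dBRD9-A, against 23.8, 26.7 and 24.9 CPM with DMSO, and MKL2 76.8, 79.1 and 80.8 CPM with dBRD9-A, against 80.9, 77.6 and 78.4 CPM with DMSO. Neither coactivator passed the test (log2 fold changes 0.03 and 0.01). MYH11 had 22.8, 25.6 and 23.3 CPM with dBRD9-A, against 17.8, 20.8 and 21 CPM with DMSO (log2 fold change 0.27, adjusted p = 0.0018). It is subject to the same overlap with NDE1, which had 1793 to 2040 counts with dBRD9-A and 1718 to 1896 counts with DMSO. Also higher were SMTN (0.19, a call lost without dBRD9-A replicate 1 or 3 or DMSO replicate 1, with adjusted p between 0.0622 and 0.0919, and with DESeq2, adjusted p = 0.106), TPM4 (0.18), MYL6 (0.14) and PDLIM5 (0.13). Lower were SYNM (-0.23), CALD1 (-0.16), LPP (-0.16), CNN3 (-0.11) and FHL1 (-0.10), all log2 fold changes with dBRD9-A.

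In all, 23 members were tested with dBRD9-A, 12 were higher and 5 lower, beside 17.7% of 13652 genes higher and 18.2% lower. The median member had a log2 fold change of 0.14, beside 0.01 over all genes tested. Libraries of this experiment were close to each other, with a common coefficient of variation of 2.78% between replicates, against 8.91% in the 96 hr experiment, and changes as small as 0.10 log2 units passed there. Other settings cut these counts. With the spread taken from all 15 libraries 6 members were higher and 0 lower, beside 5.06% of 14560 genes higher and 5.24% lower. With every dBRD9-A library lowered by 0.2 log2 units, chosen after seeing the data as an example of a fall shared by all genes that TMM cannot show, 6 were higher and 10 lower, beside 3.8% of 13652 genes higher and 59.2% lower. The same 6 genes, FHL2, CSRP1, CNN2, SRF, PDLIM7 and MYL9, were higher under each.

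**Figure D3:**
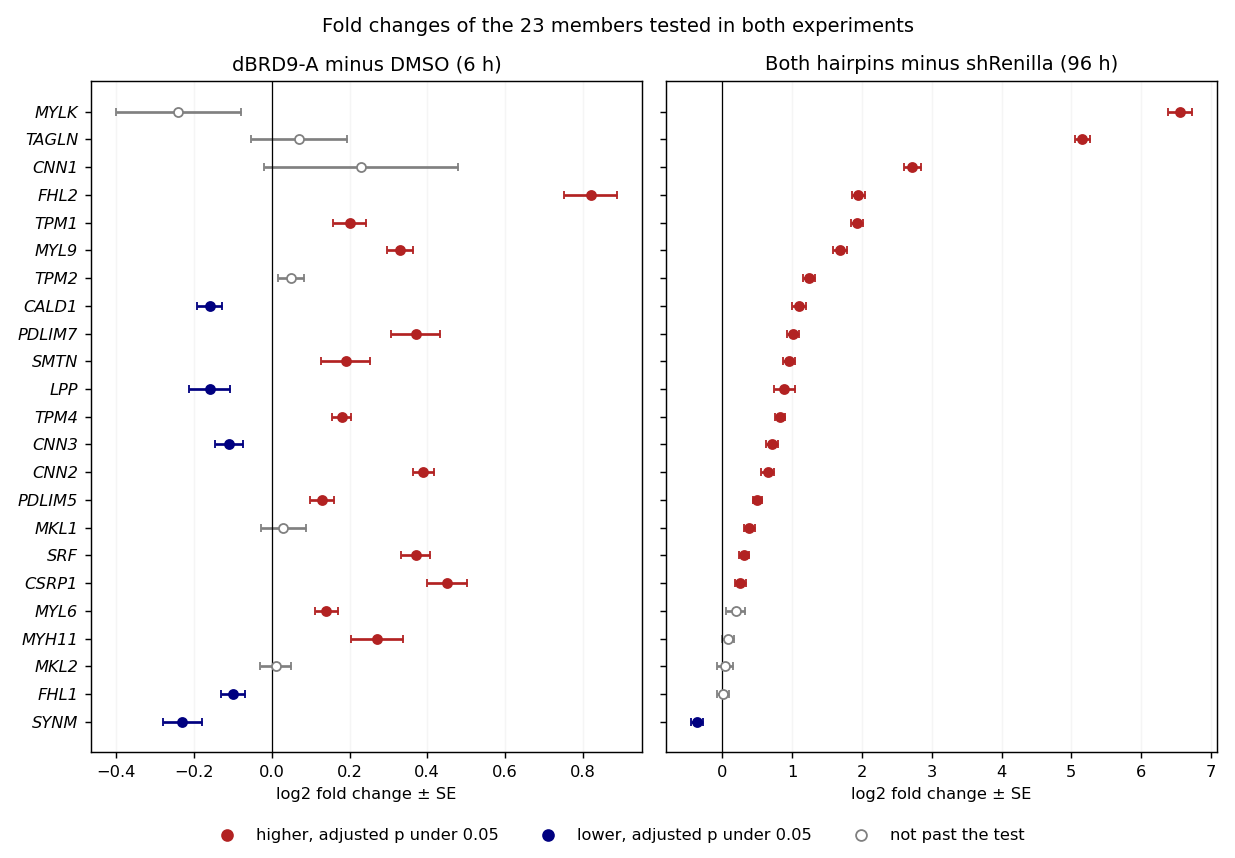
Log2 fold changes with their standard errors for the 23 members tested in both experiments, dBRD9-A minus DMSO on the left and both hairpins minus shRenilla on the right, ordered by the knockdown value. The axes differ: the left panel ends below 1, where FHL2 leads at 0.82, and the right panel runs to MYLK at 6.56, with filled points for members past the test.

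A single model of all 15 libraries compared the effects, dBRD9-A minus DMSO against both hairpins minus shRenilla. Hours of exposure, the way the agent was given and the control all differ between the experiments and cannot be told apart from the agent itself. Of the 23 members read in the controls of the 96 hr experiment, 15 had a lower dBRD9-A effect past the test and 0 a higher one, beside 19% and 17.5% of the 14560 genes tested. The difference was -6.83 ± 0.266 for MYLK (adjusted p = 2.64e-12), -5.11 ± 0.175 for TAGLN (adjusted p = 4.51e-13), -1.75 ± 0.109 for TPM1 (adjusted p = 9.54e-10) and -1.15 ± 0.117 for FHL2 (adjusted p = 4.55e-07), each ± SE and tested with edgeR. FHL2 thus rose in both experiments and less with dBRD9-A. For SRF the difference was 0.03 ± 0.0883 (SE, adjusted p = 0.802) and for CSRP1 0.16 ± 0.0975 (SE, adjusted p = 0.204), which did not pass, though CSRP1 passed without shRenilla replicate 2 (0.25, adjusted p = 0.0234). CNN2 missed the threshold as well (-0.28 ± 0.112 SE, adjusted p = 0.0595) and passed it without shRenilla replicate 1 (-0.40, adjusted p = 0.000856). SYNM was lower in both experiments, with a difference of 0.11 ± 0.114 (SE, adjusted p = 0.496).

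CALD1, LPP and CNN3 passed both tests with opposite signs when each experiment was fitted on its own. CALD1 had 205, 203 and 202 CPM with dBRD9-A, against 230, 222 and 234 CPM with DMSO, and 501 to 639 CPM with the hairpins, against 225 to 303 CPM with shRenilla. LPP had 98.9, 97 and 114 CPM with dBRD9-A, against 124, 107 and 116 CPM with DMSO, and 119 to 153 CPM with the hairpins, against 47.1 to 85.2 CPM with shRenilla. The dBRD9-A and DMSO libraries overlapped for LPP and not for CALD1. CNN3 had 124, 118 and 119 CPM with dBRD9-A, against 130, 131 and 131 CPM with DMSO, and 175 to 205 CPM with the hairpins, against 95.9 to 126 CPM with shRenilla. The differences between the effects were -1.28 ± 0.125 for CALD1 (adjusted p = 2.84e-07), -1.07 ± 0.196 for LPP (adjusted p = 0.000302) and -0.84 ± 0.106 for CNN3 (adjusted p = 6.02e-06), each ± SE and tested with edgeR. The lower call of LPP with dBRD9-A was lost without dBRD9-A replicate 1 or 2 or DMSO replicate 1 (adjusted p between 0.0999 and 0.127) and with DESeq2 (0.212), and that of CNN3 without dBRD9-A replicate 2 or 3 (0.0991 and 0.0558). In the fit of all 15 libraries, from which the differences come, every one of these lower calls was lost. The adjusted p was 0.299 for CALD1, 0.552 for LPP and 0.411 for CNN3 (edgeR).

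**Figure D4:**
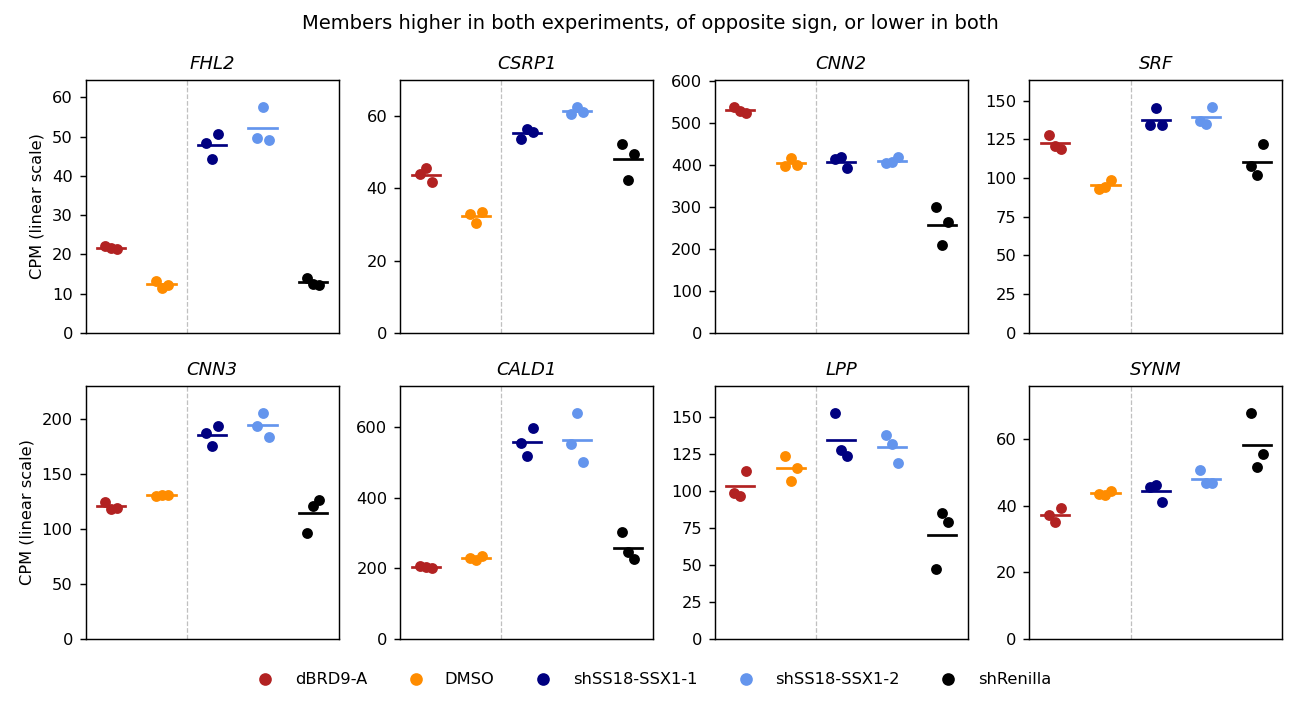
CPM on linear axes from 0 for 8 members, 1 point per library with the group mean as a bar, and a dashed line between the 6 hr and the 96 hr experiment. FHL2, CSRP1, CNN2 and SRF were higher than the control in both experiments, CNN3, CALD1 and LPP were lower with dBRD9-A and higher with the hairpins, and SYNM was lower in both.

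A further list of 17 genes was read, chosen as known targets of SRF or its partners in many cell types. Which regulator acted on them in these cells was not tested. With knockdown, 15 of the 16 tested were higher and 0 lower, with a median log2 fold change of 1.07. For this list and those that follow, the values over all genes tested were 22.5% higher, 22.1% lower and a median of -0.01 with knockdown, and 17.7% higher, 18.2% lower and a median of 0.01 with dBRD9-A. CTGF, a matricellular protein, averaged 194 ± 11.1 CPM in the hairpin libraries (SD, n = 6) and 22.5 ± 6.27 CPM in shRenilla libraries (SD, n = 3), a log2 fold change of 3.10 (adjusted p = 8.39e-10, edgeR). The immediate early genes EGR1 and FOS rose by 2.57 and 2.11. EGR1 varied widely in the controls, with 6.27 to 31 CPM in shRenilla libraries, against 70 to 140 CPM with the hairpins. With dBRD9-A, 9 of the 15 tested were higher and 1 lower, with a median of 0.14. CTGF averaged 49.4 ± 4.18 CPM with dBRD9-A and 31.7 ± 2.81 CPM with DMSO (SD, n = 3 each), higher by 0.65 on the log2 scale (adjusted p = 4.06e-10, edgeR). CYR61, a relative of CTGF, rose by 0.60 and ZYX, the adhesion protein zyxin, by 0.58.

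Genes that set the force of contraction moved in part. Of 18 tested genes of contraction signalling and non-muscle myosin, 10 were higher and 1 lower with knockdown (median log2 fold change 0.21). PPP1R14A, an inhibitor of the phosphatase that acts against the kinase, averaged 87.3 ± 15.2 CPM with the hairpins (SD, n = 6) and 21.3 ± 3.67 CPM with shRenilla (SD, n = 3), a log2 fold change of 2.00 (adjusted p = 3.26e-09, edgeR). PPP1R12B, a targeting subunit of that phosphatase, rose by 1.88 and CACNA1C, the pore of the L-type calcium channel, by 1.48. With dBRD9-A, 2 of 19 tested were higher and 5 lower (median -0.03). Both PPP1R14A (-0.20, adjusted p = 0.0134) and PPP1R12B (-0.21, adjusted p = 0.00794) were lower there. Of 15 transcription factors linked to smooth muscle that the controls also read, 7 were higher and 3 lower with knockdown (median log2 fold change 0.19). A further one, KLF4, reached the filter only through its hairpin libraries. KLF4, which is known to repress smooth muscle genes, averaged 1.14 ± 0.346 CPM with the hairpins (SD, n = 6) and 0.127 ± 0.0278 CPM with shRenilla (SD, n = 3), a log2 fold change of 3.09, and GATA4, a factor of heart and gut, fell by 1.17. With dBRD9-A, 4 of 14 tested were higher and 4 lower (median 0.00).

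Summed levels of markers of other cell types also differed in the hairpin libraries, and for markers the counts below leave out genes that reached the filter only through their hairpin libraries. The summed level of the 7 defining smooth muscle genes was 701 to 856 CPM with the hairpins and 32.3 to 37.4 CPM with shRenilla. Most of the hairpin sum was TAGLN (484 to 562 CPM), and most of the shRenilla sum was TAGLN (13 to 17.1 CPM) and MYH11 (15.3 to 17.2 CPM). Over 18 skeletal and cardiac muscle markers the sum was 244 to 259 CPM with the hairpins and 123 to 185 CPM with shRenilla. Most of it was TNNT1, with 170 to 193 CPM with the hairpins and 93.5 to 162 CPM with shRenilla (log2 fold change 0.56). Of the 6 tested that the controls also read, 4 were higher, while 7 others reached the filter only through their hairpin libraries. ACTC1, the cardiac actin, had 8.21 to 19.8 CPM in hairpin libraries and 0 counts in shRenilla libraries, while the myogenic factor MYOG was at 0 in every group. Over 11 fibroblast markers the sum was 883 to 1114 CPM with the hairpins and 232 to 287 CPM with shRenilla, and 4 of 5 were higher, COL1A1 (collagen I) by 7.13. COL1A1 alone had 368 to 582 CPM with the hairpins. COL1A2, LUM, DCN, FAP and POSTN had at most 0.394 CPM there, and PDGFRA did not pass (-0.12, adjusted p = 0.256, edgeR). Over 8 pericyte markers the sum was 277 to 310 CPM with the hairpins and 154 to 187 CPM with shRenilla, with 4 of 5 higher, and RGS5 rose by 4.57. The largest part of this sum was MCAM, with 127 to 143 CPM with the hairpins and 93.8 to 113 CPM with shRenilla (log2 fold change 0.41). KCNJ8, ABCC9 and ANPEP had at most 0.698 CPM with the hairpins, and HIGD1B did not pass (-0.41, adjusted p = 0.34, edgeR). Epithelial markers, 7 genes, summed to 65.5 to 160 CPM with the hairpins and 0.0484 to 0.491 CPM with shRenilla. The 3 tested, CDH1, KRT8 and KRT18, all reached the filter only through their hairpin libraries. Most of the sum was KRT8 (25.7 to 64.4 CPM with the hairpins) and KRT18 (37.7 to 91.5 CPM). KRT19, EPCAM, CLDN4 and KRT7 had at most 0.409 CPM there. Endothelial markers summed to 20.8 to 29.9 CPM with the hairpins and 30.8 to 33.7 CPM with shRenilla, with CDH5 and KDR at 0 in every group, and both tested, CLDN5 (-0.73, adjusted p = 0.0175) and ERG (-0.35, adjusted p = 0.00169), were lower. Leukocyte markers summed to 5.89 to 7.96 CPM with the hairpins and 2.95 to 5.28 CPM with shRenilla, and the 1 tested that the controls also read, CD68, was higher. Most of the sum was CD68, with 4.93 to 6.58 CPM with the hairpins, while PTPRC and CD3E had 0 counts there. The part of these markers in the members' changes was not tested. With dBRD9-A the sum over the defining smooth muscle genes was 29.4 to 31.3 CPM, against 23.4 to 27.6 CPM with DMSO. Most of each sum was MYH11, with 22.8 to 25.6 CPM with dBRD9-A and 17.8 to 21 CPM with DMSO. MYH11 is subject to the overlap with NDE1, and TAGLN and CNN1 did not pass the test.

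The controls of the experiments did not have the same levels of members either, as TAGLN shows with 4.42 to 5.48 CPM with DMSO, against 13 to 17.1 CPM with shRenilla, so each experiment was read against its own control. Some members share sequence or position with other genes. ACTA2 overlaps ACTA2-AS1 on the opposite strand over 38.3% of its canonical transcript, and that antisense gene had 467 to 1091 counts in hairpin libraries and 0 in shRenilla libraries. TAGLN overlaps PCSK7, which had 949 to 1245 counts in hairpin libraries, beside 9434 to 14282 counts for TAGLN, and 644 to 907 counts in shRenilla libraries. The canonical transcript of TAGLN also shares 65.3% of its 75-base stretches with an overlapping gene model on the same strand (ENSG00000280143), and reads of those stretches cannot be told apart. SYNM overlaps SYNM-AS2 over 27.6% of its canonical transcript. Of the 75-base stretches of TPM4 and PGM5, 9.62% and 16.5% also occur in their pseudogenes, so their counts are less certain, while ACTA2 and ACTG2 shared 0 such stretches with other genes.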

How the data were processed

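HSSYII RNA was sequenced in 15 libraries. The deposited tables hold raw read counts per RefSeq transcript row, 48104 rows a file, which the authors made from their reads. The submitters' processing notes name STAR, featureCounts and hg19 (GRCh37), and strand use is not given in the sources used here. The file of dBRD9-A replicate 2 holds the same counts, with 4535 symbols broken across cells, which were rejoined. Its unit was recorded as other because the deposited cells mix text and counts. A symbol with several rows was represented by the row holding most counts. The main test, over all genes, was the robust quasi-likelihood test of edgeR (version 4.0.16, R version 4.3.3) after TMM scaling and filterByExpr with a minimum count of 10, with Benjamini-Hochberg adjustment. The knockdown value is the mean of both hairpins in 1 fit of 9 libraries. The study added spike-in RNA, but no row of these tables names one, and a shift shared by all genes cannot be seen. Totals of 18580419 to 27031647 counts leave a floor of 3 counts. Intervals and floors cover counting error only.

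Named in every library were the 7 defining genes, 4 regulators and, for each comparison, the 5 other members with the largest absolute log2 fold change past the test, and from other lists up to 3 genes by the same rule. CALD1, LPP, CNN3, MYL6, SYNM and the MYLK rows were described more fully after their values had been seen. Members and lists were chosen with earlier results of these data known. In data simulated on the counts, the test recovered 81% of 1.5-fold changes for dBRD9-A over 13652 genes and 79% for knockdown over 14269 genes. For the difference between the effects, the test recovered 58% of 1.5-fold changes over 14560 genes. The alternatives were the tools DESeq2 (version 1.42.0) and limma with voom (version 3.58.1), 3 further scalings, no filter, summed rows, the replicate number as a block, 1 fit of all libraries and each library left out.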

Additional observations from a re-analysis of the deposited data

Results flagged for a closer look

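CALD1, LPP and CNN3 differed in direction when each experiment was fitted on its own, with dBRD9-A lower than DMSO and the hairpins higher than shRenilla. In the test of the difference, dBRD9-A effect minus knockdown effect, the log2 values were -1.28 for CALD1, -1.07 for LPP and -0.84 for CNN3. The dBRD9-A effects were at most 0.16 log2 units in size in the main fit. In 1 fit of all 15 libraries none of them passed (adjusted p = 0.299 for CALD1, 0.552 for LPP and 0.411 for CNN3, edgeR).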

How the results depend on the processing

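With dBRD9-A, 12 members were higher and 5 lower, beside 17.7% and 18.2% of all genes tested. In 1 fit of all 15 libraries these counts were 6 and 0, where the 96 hr libraries add their wider spread (5.06% of all genes higher, 5.24% lower), and with the dBRD9-A libraries lowered by 0.2 log2 units 6 and 10 (3.8% of all genes higher, 59.2% lower). That shift by construction turned SMTN to -0.01, TPM4 to -0.02, MYL6 to -0.06, PDLIM5 to -0.07, TPM2 to -0.15, MKL1 to -0.17 and MKL2 to -0.19. Leaving out 1 library gave 11 to 12 higher and 3 to 5 lower. With knockdown the other settings gave 22 to 24 members higher and 1 lower, and leaving out 1 library 22 to 23 and 1. In the main fit 22.5% of all genes tested were higher and 22.1% lower. The member counts with the hairpins include ACTA2, ACTG2, LMOD1 and DES, which reached the filter only through the hairpin libraries. For shSS18-SSX1-1 alone, leaving out 1 library gave 21 to 23 higher and 1 to 2 lower. For shSS18-SSX1-2 alone it gave 22 to 23 higher and 0 to 1 lower, and upper quartile scaling gave 0 lower, where the member lost was SYNM. Over all 14269 genes the main fit gave 3138 higher and 2787 lower for shSS18-SSX1-1. For shSS18-SSX1-2 the main fit gave 2612 genes higher and 2271 lower. Between the hairpins, 1 member was higher without the filter, and leaving out 1 library gave 0 to 1 higher. For the difference between the effects, the main fit gave 0 higher and 17 lower over all 27 tested members. These 17 include ACTA2 and LMOD1, which the 15 given above leave out. Leaving out 1 library gave 0 to 1 higher and 16 to 19 lower. The cause of these changes was not tested. Replicate numbers did not pair the libraries, with correlations of same-numbered deviations between -0.605 and 0.457 in the 96 hr experiment. The replicate block left 12 members higher and 5 lower with dBRD9-A, and 22 higher and 1 lower with knockdown. Over all genes it gave 2379 higher and 2415 lower of 13652 with dBRD9-A. With knockdown it gave 2980 higher and 2670 lower of 14269. Counts limit ACTA2, ACTG2, LMOD1, DES, MYOCD and SYNPO2, whose control libraries hold 0 to 6 reads each.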
